A study of Homo sapiens
Mus musculus with 6 samples.

Results

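The 54 mouse genes described here had no read in any of the 3 wells of C2C12-Notch1 cells and at least 20 reads summed over the 3 wells of C2C12-control cells. They were chosen from 23433 genes of the mouse table by those read counts. Names of 21 starting strings, which cover interferon-induced, major histocompatibility, collagen, Wnt and chemokine genes, were left out. The absence of reads in C2C12-Notch1 cells is therefore how the genes were chosen, not a result, and it is given below as a description with no test.

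C2C12 is a mouse myoblast line, a precursor of skeletal muscle cells, and each of the 6 wells combined it with human HEK293-Flp-In embryonic kidney cells. The C2C12-Notch1 cells carry full-length Notch1 stably and were kept under puromycin; the labels do not say whether they are a clone or a pool. The HEK-Jag1WT and HEK-Jag1Ndr cells carry Jag1, a ligand of Notch receptors, as the wild-type form or as the product of the Nodder allele, and were kept under hygromycin. The groups were C2C12-Notch1 beside HEK-Jag1WT, beside HEK-Jag1Ndr and beside HEK-control, and C2C12-control beside the same HEK lines, with 1 well each. All C2C12 cells, C2C12-control included, settled for 8 h and received an empty plasmid at 1.6 ug per well. HEK cells followed 18 h after transfection, and RNA was taken after 6 h of co-culture.

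Cadherins are surface proteins through which cells of like kind adhere, and myoblasts use them in sorting and fusion. The EVC complex sits at the base of the primary cilium, where it passes the Hedgehog signal on from Smoothened to the Gli factors. Tripartite motif proteins are a large family that acts mainly through ubiquitin, and Sox proteins are transcription factors that set cell identity in development.

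Mouse reads ranged from 2263529 to 7965231 per well and human reads from 4081452 to 10292878. The C2C12-Notch1 wells held 11312774 mouse reads in all and the C2C12-control wells 16561780. Notch1 averaged 170 ± 11.4 RPKM, a read count scaled for gene length and depth, in C2C12-Notch1 wells and 14.1 ± 5.80 RPKM in C2C12-control wells (SD, n = 3 each). That is a log2 difference of 3.62 ± 0.294 (SE), with an adjusted p of 0.00859 by edgeR's quasi-likelihood test, the largest value over the alternatives being 0.105. All 8 myoblast markers had reads in both lines, with a summed level of 3999 to 4263 RPKM in C2C12-Notch1 wells and 4061 to 4593 RPKM in C2C12-control wells. Vim supplied most of that sum, with 2738 to 2746 RPKM in C2C12-Notch1 wells and 2890 to 3065 RPKM in C2C12-control wells. Single markers lay on either side: the differentiation factor Myog had 23.8 to 38.3 RPKM in C2C12-Notch1 wells and 11.6 to 13.0 RPKM in C2C12-control wells, and Myod1 had 52.2 to 96.2 RPKM in C2C12-Notch1 wells and 27.8 to 49 RPKM in C2C12-control wells. Des, the muscle filament desmin, had 339 to 415 RPKM in C2C12-Notch1 wells and 538 to 593 RPKM in C2C12-control wells. Fibroblast markers summed to 40.6 to 45.9 RPKM in C2C12-Notch1 wells and 84.1 to 91.1 RPKM in C2C12-control wells, with 5 of 8 detected in each line and Thy1, Lum and Tcf21 at 0 in both. Prrx1 accounted for most of the difference, with 12.5 to 18.8 RPKM in C2C12-Notch1 wells and 53.6 to 60.3 RPKM in C2C12-control wells, while Twist2 had 21.2 to 25.2 RPKM in C2C12-Notch1 wells and 17.7 to 20.6 RPKM in C2C12-control wells. The part of these differences in the results below was not tested. In bulk RNA, fewer cells with a transcript and less transcript per cell cannot be told apart.

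Without the restriction on names, 68 of the 11743 genes with at least 20 reads in C2C12-control cells (0.579%) had none in C2C12-Notch1 cells. The names removed 14 of them, Oas3, Oas1a, Oas1b, Oas1g, Oas1c, Ifi27l2a, Iigp1, Trim30a, Gbp5, Ifi44l, Cxcl9, Wnt5a, Col11a1 and Colec12. The 54 that remain are 0.465% of the 11621 genes with the other names. Among genes with at least 100 reads in C2C12-control cells, 22 of 10143 (0.217%) had none in C2C12-Notch1 cells, and at 500 reads 7 of 6947 (0.101%). In the opposite direction, 2 of 11184 genes with at least 20 reads in C2C12-Notch1 cells (0.0179%) had none in the deeper C2C12-control wells. By edgeR, 57.8% of the 11365 tested mouse genes differed between the lines, 28.4% higher and 29.4% lower in C2C12-Notch1 cells, while DESeq2 called 3584 genes against edgeR's 6569. Without the C2C12-Notch1 well beside HEK-control the rule finds 86 genes instead of 54.

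**Figure D1:**
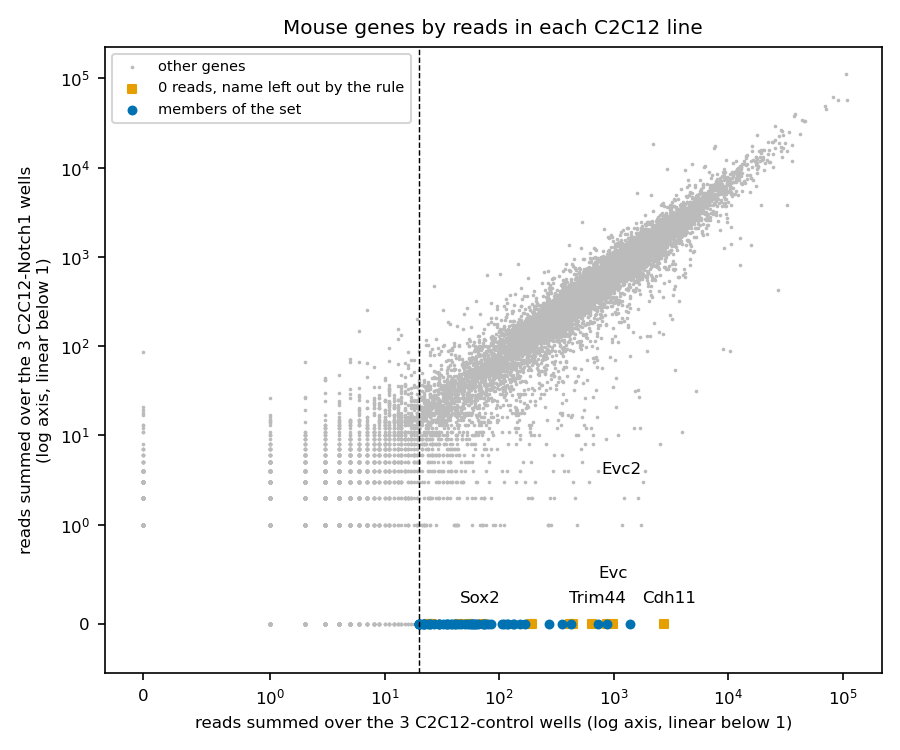
Reads of each mouse gene summed over the 3 C2C12-Notch1 wells (vertical axis) and over the 3 C2C12-control wells (horizontal axis), both logarithmic and linear below 1 read. Blue points are the 54 genes, orange squares the 14 left out by name, grey points all other genes, and the dashed line marks 20 reads. The 54 genes lie on the zero line from 20 to 1375 C2C12-control reads, below a main band that holds most genes.

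Most of the 54 genes were low in C2C12-control cells as well. Their reads there had a median of 51.5 and ran from 20 to 1375, with 14 genes at 100 or more, 14 at 50 to 99 and 26 at 20 to 49. Their mean levels had a median of 1.23 RPKM, against 15.5 RPKM over all genes of any name with at least 20 C2C12-control reads. Every one of the 54 had reads in all 3 C2C12-control wells. Cdh11, Evc and Trim44 supplied 2977 of the 6731 reads of the set, or 44.2%. Had the C2C12-Notch1 cells matched the C2C12-control rate, the least abundant gene would have been expected at 13.7 reads over their 3 wells. Against a floor of 3 reads over the 3 C2C12-Notch1 wells, fold bounds ran from 4.55-fold to 313-fold lower, with a median of 11.7-fold. Such bounds cover counting error only, and they grow with a gene's C2C12-control reads. They follow from the absence of reads by which the genes were chosen, and make no allowance for that choice. No confidence level is attached to them. Each fold given below as "at least" is a bound of this kind, a description and not a test.

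The cell-surface and membrane genes were the largest group, with 12 genes and 2752 C2C12-control reads. Cdh11 encodes cadherin-11, a type II cadherin of mesenchymal cells. It had 0 reads in each C2C12-Notch1 well, against 463, 655 and 257 reads in the C2C12-control wells beside HEK-Jag1WT, HEK-Jag1Ndr and HEK-control. Its C2C12-control level was 20.1 ± 4.39 RPKM (SD, n = 3), so the C2C12-Notch1 wells were at least 313-fold lower. Evc, a subunit of the EVC ciliary complex, had 0 reads in each C2C12-Notch1 well, against 251, 397 and 222 reads in the C2C12-control wells in the same order of partners. At 12.3 ± 0.706 RPKM (SD, n = 3) in C2C12-control cells, it was at least 198-fold lower in C2C12-Notch1 cells. Evc was even across the C2C12-control wells, and Cdh11 had its highest RPKM beside HEK-Jag1WT.

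The remaining surface genes lay far below these. Unc5c, a receptor for the guidance protein netrin, had 0 reads in each C2C12-Notch1 well, against 27, 61 and 45 reads in the C2C12-control wells (at least 30.3-fold lower). Tmem176a, a membrane protein of the CD20-like family, averaged 4.32 ± 1.48 RPKM in C2C12-control cells (SD, n = 3). Cnr1, the cannabinoid receptor of the nervous system, averaged 0.770 ± 0.278 RPKM there (SD, n = 3). Ror2, a receptor tyrosine kinase for Wnt5a, had 44 C2C12-control reads, and Wnt5a itself is among the genes without C2C12-Notch1 reads that were left out by name. Prrg1, Itga11 (a collagen-binding integrin subunit), Clec4d (a C-type lectin), Lpar3 (a lysophosphatidic acid receptor) and Tlr5 (the flagellin receptor) had between 20 and 50 reads. For these the bound was between 4.55-fold and 11.4-fold.

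The 9 ligands and other extracellular proteins held 609 reads. Ptn encodes pleiotrophin, a heparin-binding growth factor. It had 0 reads in each C2C12-Notch1 well, against 44, 80 and 43 reads in the C2C12-control wells beside HEK-Jag1WT, HEK-Jag1Ndr and HEK-control, and was even across the C2C12-control wells at 5.03 ± 0.284 RPKM (SD, n = 3). Sparcl1, a relative of the matrix protein SPARC, had 0 reads in each C2C12-Notch1 well, against 46, 62 and 11 reads in the C2C12-control wells. It had its lowest count beside HEK-control. Adm, the vasodilator peptide adrenomedullin, had 0 reads in each C2C12-Notch1 well, against 32, 58 and 21 reads in the C2C12-control wells. Itih2, Nrn1 (neuritin), Tgfa (a ligand of the EGF receptor), Mmp16 (a membrane-type metalloproteinase) and Tnfsf11 (RANKL, the osteoclast differentiation factor) had 21 to 63 reads.

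Transporters and enzymes were 6 genes with 900 reads. Mfsd9, of the major facilitator superfamily, had 0 reads in each C2C12-Notch1 well, against 83, 178 and 89 reads in the C2C12-control wells, or 6.59 ± 0.806 RPKM (SD, n = 3; at least 79.7-fold lower). Gda, guanine deaminase, had 0 reads in each C2C12-Notch1 well, against 28, 74 and 50 reads in the C2C12-control wells. Slc2a3, the glucose transporter GLUT3, had 0 reads in each C2C12-Notch1 well, against 34, 84 and 16 reads in the C2C12-control wells. Gda had its lowest RPKM beside HEK-Jag1WT and Slc2a3 beside HEK-control. Abcg1, a cholesterol exporter, held 118 C2C12-control reads at 1.23 ± 0.0862 RPKM (SD, n = 3). Slc25a13, the mitochondrial aspartate-glutamate carrier, held 84 reads and Hs3st5, a heparan sulfate sulfotransferase, 62.

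Of the 8 transcription factors and nuclear proteins, none reached 5 RPKM in C2C12-control cells. Sox2, a factor of neural and pluripotent cells, had 0 reads in each C2C12-Notch1 well, against 21, 25 and 12 reads in the C2C12-control wells beside HEK-Jag1WT, HEK-Jag1Ndr and HEK-control. Its level was 1.45 ± 0.347 RPKM (SD, n = 3) in C2C12-control cells, so it was at least 13.2-fold lower in C2C12-Notch1 cells. Of the 5 pluripotency markers, Pou5f1, Zfp42, Lin28a and Sall4 had no reads in either line. Nanog had 0.386, 0 and 0.168 RPKM in the C2C12-Notch1 wells beside HEK-Jag1WT, HEK-Jag1Ndr and HEK-control, against 0.189, 0 and 0 RPKM in the C2C12-control wells. Bcl6b, a transcriptional repressor related to Bcl6, had 105 C2C12-control reads and Eid2, an inhibitor of differentiation that acts on MyoD-dependent transcription, 74. Zfp422, Msx2 (a homeobox repressor), Ndn (necdin, imprinted), Tceal1 and Gata6 had 22 to 65.

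Intracellular adaptors and regulators were 10 genes with 1304 reads. Trim44, a tripartite motif protein with a ubiquitin protease-like zinc finger, had 0 reads in each C2C12-Notch1 well, against 219, 332 and 181 reads in the C2C12-control wells beside HEK-Jag1WT, HEK-Jag1Ndr and HEK-control. At 8.00 ± 0.517 RPKM (SD, n = 3) in C2C12-control cells, it was at least 167-fold lower in C2C12-Notch1 cells. Rftn1, the lipid raft linker raftlin, had 0 reads in each C2C12-Notch1 well, against 75, 137 and 58 reads in the C2C12-control wells (at least 61.5-fold lower). Trim44 and Rftn1 varied little between the C2C12-control wells. Fam110c, Gas7, Arrdc4 (an alpha-arrestin), Hsh2d (an SH2 adaptor), Akip1, Arap2 (a GTPase-activating protein for Arf), Tpd52l1 and Trim14 had 20 to 79 reads.

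The last 9 genes are given no role here. I830012O16Rik had 0 reads in each C2C12-Notch1 well, against 95, 233 and 94 reads in the C2C12-control wells, and at 21.6 ± 3.96 RPKM (SD, n = 3) it had the highest C2C12-control level per length of all 54. Phf11b averaged 5.08 ± 0.677 RPKM and Smim20 3.95 ± 1.20 RPKM in C2C12-control cells (SD, n = 3 each). D7Ertd715e, 5830411N06Rik, 4930452B06Rik, 5730409E04Rik, Gm4951 and Nhsl2 had 25 to 41 reads. Counts of genes with close copies, such as Phf11b, are uncertain where reads could be split between copies, and the library kit does not mark strand, so reads of an overlapping antisense gene cannot be told apart.

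**Figure D2:**
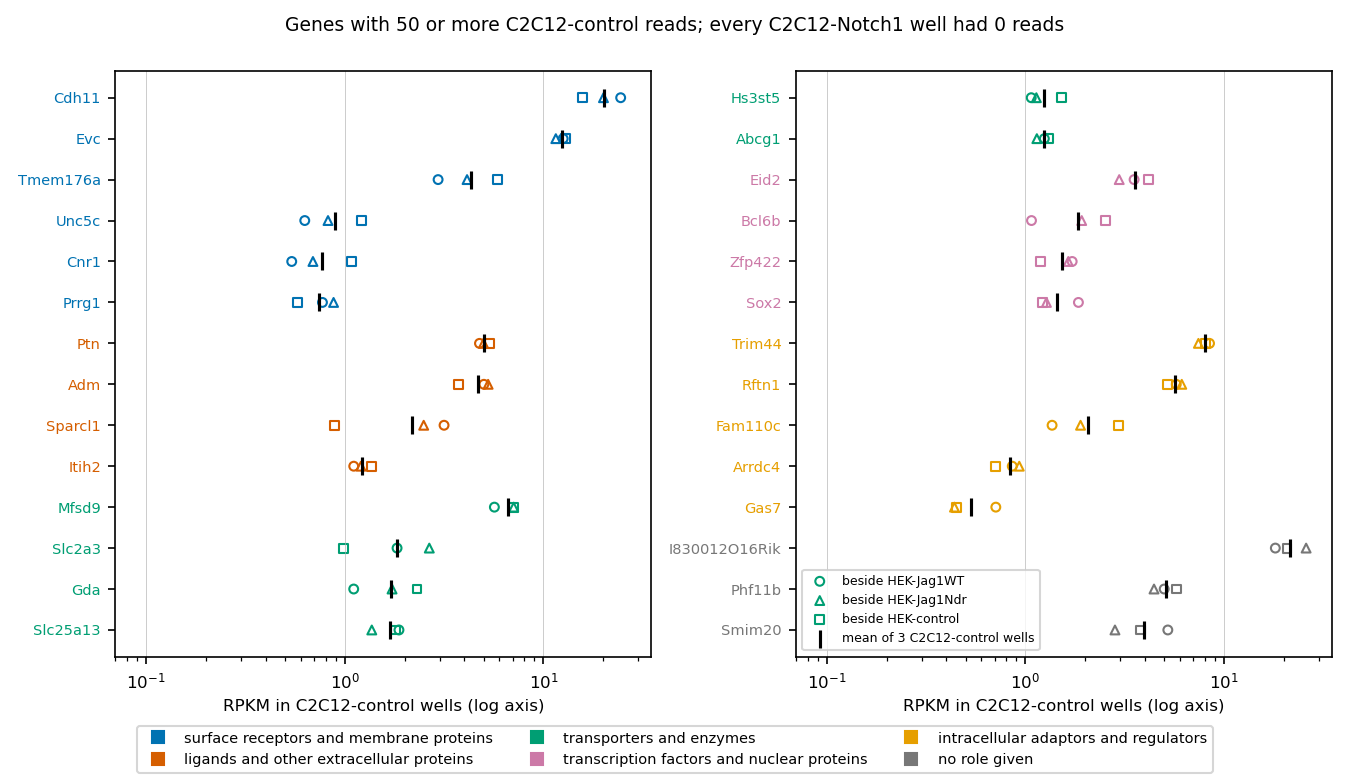
Level of each of the 28 genes with at least 50 C2C12-control reads in the C2C12-control wells, in RPKM on a log axis, with circles for the well beside HEK-Jag1WT, triangles beside HEK-Jag1Ndr, squares beside HEK-control and a bar for the mean of the 3 wells. Colours give the role group. Cdh11, Evc, Trim44 and I830012O16Rik stand to the right, and Gas7, at 0.533 RPKM, has the lowest mean of those shown.

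The restriction on names neither removed all interferon-induced genes nor kept all others. Phf11b, Trim14 and Gm4951 are on a list of 114 further interferon-induced genes, matched by the names in the table alone, so clone-style names may hide others. Colec12, a scavenger receptor of the collectin family that was meant to mark the set, was left out because its name begins like that of the collagens. Colec12 had 0 reads in each C2C12-Notch1 well, against 284, 457 and 236 reads in the C2C12-control wells beside HEK-Jag1WT, HEK-Jag1Ndr and HEK-control (at least 222-fold lower). The set is therefore called here the genes without reads in C2C12-Notch1 cells.

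Trim14, Tpd52l1, Tlr5, Lpar3 and Clec4d entered with exactly 20 C2C12-control reads. Just outside, 2010002M12Rik and Mmp13 had 18, Crhbp and Epha7 17 and Batf2 16, with none in C2C12-Notch1 cells. A single C2C12-Notch1 read kept out 32 genes, among them Khdrbs3 with 281 C2C12-control reads, Kcnj2 with 273, Sp100 with 268, Dkk3 with 111 and Ms4a4d with 101. Genes on either side of the limits thus had closely similar counts.

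By name, the 54 genes were spread over many families. They include 1 of 25 cadherin and protocadherin genes with at least 20 C2C12-control reads, 1 of 8 Sox genes, 2 of 36 Trim genes, 2 of 192 Slc genes and 1 of 300 Zfp genes. Genes with Rik, Gm or LOC names contributed 5 of 577 (0.867%). Over all kept names the share was 0.465%, and most of these families are too small for a count of 0 or 1 to be read against it.

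Relatives and partners of 25 of the genes were then compared between the C2C12 lines. Of 52 such genes, 36 were tested, of which 10 were higher and 15 lower in C2C12-Notch1 cells. Among all 11365 genes tested, 28.4% were higher and 29.4% lower. The median log2 difference was -0.11 for the relatives and 0.00 over all genes tested. The relatives were picked once the 54 names were known. The relative with the fewest C2C12-Notch1 reads for its C2C12-control level was Evc2, the other EVC subunit. It had 0, 1 and 2 reads in the C2C12-Notch1 wells beside HEK-Jag1WT, HEK-Jag1Ndr and HEK-control, against 170, 307 and 130 reads in the C2C12-control wells. It was 138-fold lower in C2C12-Notch1 cells (exact 95% counting interval 47.1 to 672). Tmem176b, the paired relative of Tmem176a, had 0, 3 and 2 reads in the C2C12-Notch1 wells, against 37, 76 and 48 reads in the C2C12-control wells (22-fold lower, interval 9.23 to 68.7). Abca1, the cholesterol exporter that feeds the same efflux route as Abcg1, had 3, 2 and 2 reads in the C2C12-Notch1 wells, against 20, 34 and 20 reads in the C2C12-control wells (7.22-fold lower, interval 3.34 to 18.6). In these 3 pairs, the second gene thus had 3 to 7 reads over the C2C12-Notch1 wells.

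Other relatives differed less, or in the opposite direction. The Hedgehog transducer Smo differed by a log2 of -0.10 (edgeR adjusted p = 0.179) and the receptor and target Ptch1 by -0.28 (edgeR adjusted p = 0.155). Among the Gli factors, Gli1 was higher in C2C12-Notch1 cells by a log2 of 1.74 (edgeR adjusted p = 2.00e-07) and Gli3 lower by a log2 of -0.59 (edgeR adjusted p = 1.67e-08). Cdh2, N-cadherin of myoblasts, was higher by a log2 of 0.48 and Cdh15, M-cadherin of muscle, by 0.65, while Cdh13 was lower at -0.48. The netrin receptor Unc5b was higher at 0.33 and Sparc at 0.19. Slc2a1, the glucose transporter GLUT1, was lower at -0.81, and Rftn2, the relative of Rftn1, at -1.0. Mmp15, a relative of Mmp16, was higher at 3.47. Each of the last 8 passed with an edgeR adjusted p below 0.05, also under every alternative tried.

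Gene lists around the set, with the genes without C2C12-Notch1 reads taken out, were then counted by edgeR's adjusted threshold. Of 10 tested cadherins and catenins, 6 were higher and 2 lower in C2C12-Notch1 cells, with a median log2 difference of 0.32 and Ctnnb1 (beta-catenin) at 0.56. Of 6 Sox genes, 3 were higher and 2 lower (median 0.93), with Sox12 at 2.18, Sox8 at 2.10, Sox11 at 1.48 and Sox4 at -0.53. Of 16 imprinted genes, 8 were higher and 1 lower (median 0.47), with H19 at 1.68, Peg10 at 1.40, Peg3 at 0.44 and Igf2r at -1.42. Sox2 and Ndn, which belong to the Sox and imprinted lists, are not in these counts.

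Of 22 fibroblast and mesenchymal genes, 3 were higher and 12 lower in C2C12-Notch1 cells (median -0.15), with Ly6a at -3.41, Prrx1 at -1.92, Pdgfrb at -1.48 and Postn at 1.86. Of 8 scavenger receptors and collectins, 2 were higher and 3 lower (median -0.29), with Colec10 at 3.34, Megf10 at 0.69, Scarb1 at -0.35 and Scarb2 at -0.47. Colec10 lay near the floor, with 5, 11 and 14 reads in the C2C12-Notch1 wells and 2, 2 and 0 in the C2C12-control wells. Of 5 pluripotency genes, 2 were higher and 3 lower (median -0.41). Among them Klf4 was at -0.99, Klf2 at -0.41, Klf5 at 0.73 and Dnmt3b at 1.34. The list of further interferon-induced genes stood at 1 higher and 74 lower of 82 tested (median -2.11), with Oasl2 at -6.81, Lgals3bp at -6.33, Bst2 at -6.07 and Ly6e at -2.56. That list also names Phf11b, Trim14 and Gm4951, which are not in its counts. Over all genes tested, 3229 were higher and 3340 lower.

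Gene order was read from the human RefSeq table (GRCh38.p14) through genes of the same name, and the mouse order was not checked. Of the 46 genes placed, 0 lay next to another of the 54, whether all genes or those with at least 20 or 100 C2C12-control reads were counted. As the 46 are 0.280%, 0.436% and, for the 13 placed at 100 reads, 0.139% of the genes placed, a count of 0 says little. Flanking genes were the nearest placed genes, up to 2 on each side, with at least 20 C2C12-control reads. Genes with fewer reads were passed over, so a flanking gene need not be the adjacent gene. Expression of the 91 flanking genes in C2C12-control cells thus follows from how they were picked. At least 20 C2C12-Notch1 reads were found for 85 of them (93.4%), against 94.0% of all genes at the read minimum. Evc2, beside Evc, and Itih5, beside Itih2, were the 2 flanking genes (2.20%) with 3 or fewer C2C12-Notch1 reads, against 1.45% of all such genes. Of 88 flanking genes tested, 23 were higher and 31 lower in C2C12-Notch1 cells, with a median log2 difference of -0.10. Over all 11365 genes tested, 28.4% were higher and 29.4% lower, with a median of 0.00.

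Flanking genes of some leading members follow, and genes with fewer C2C12-control reads may lie in between. The nearest such flanking gene before Trim44 was Cd44, a hyaluronan receptor. Cd44 averaged 309 ± 17.2 RPKM in C2C12-Notch1 wells and 394 ± 40.9 RPKM in C2C12-control wells (SD, n = 3 each; log2 -0.36). On the other side of Trim44, Ldlrad3 averaged 39.6 ± 2.59 RPKM in C2C12-Notch1 wells and 28.1 ± 2.13 RPKM in C2C12-control wells (SD, n = 3 each; log2 0.49). Got2, a mitochondrial aminotransferase and the nearest flanking gene before Cdh11, averaged 83.8 ± 1.13 RPKM in C2C12-Notch1 wells and 67.8 ± 4.10 RPKM in C2C12-control wells (SD, n = 3 each). Its log2 difference of 0.29 had an edgeR adjusted p of 0.00112, which rose to as much as 0.0881 under an alternative. On the other side of Cdh11, Bean1 had 2, 0 and 3 reads in the C2C12-Notch1 wells, against 8, 21 and 8 reads in the C2C12-control wells beside HEK-Jag1WT, HEK-Jag1Ndr and HEK-control, too few to be tested. For Evc, the nearest flanking gene on the side away from Evc2 was Wfs1, an endoplasmic reticulum protein, with a log2 difference of -0.56.

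**Figure D3:**
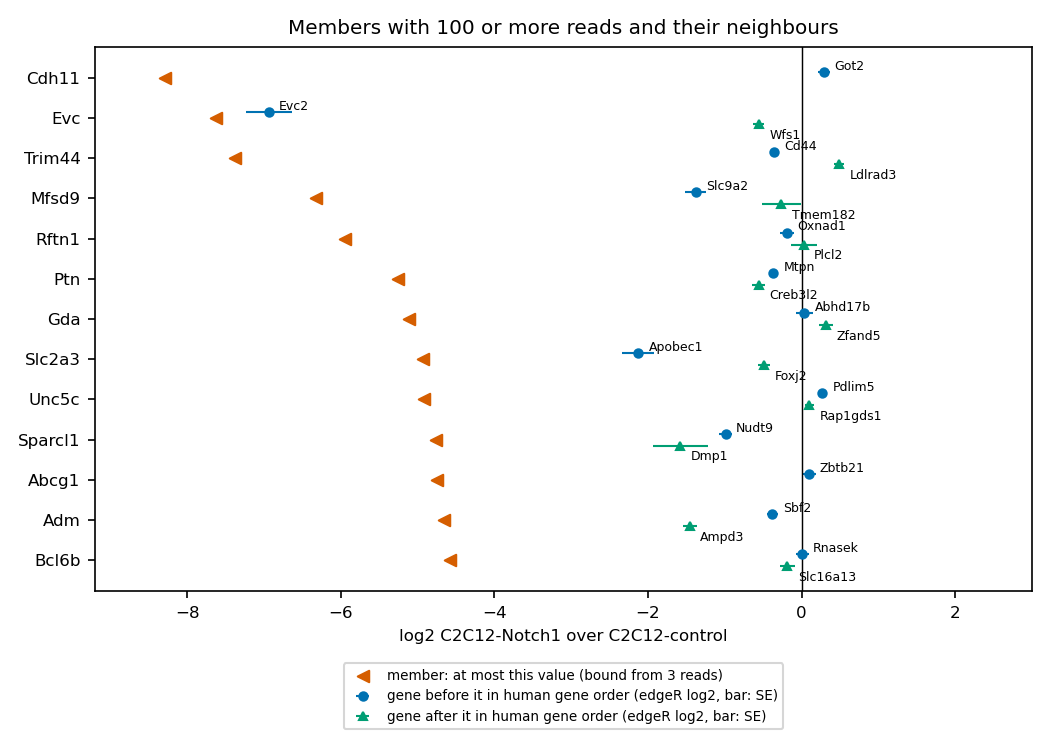
Log2 difference, C2C12-Notch1 over C2C12-control, for the 13 of the 14 genes with at least 100 reads that have a human gene of the same name. Orange triangles are upper bounds from the 3-read floor. Blue circles and green triangles are the tested flanking genes with their SE, the nearest in human gene order with at least 20 C2C12-control reads. The flanking genes lie between -2.2 and 0.5, apart from Evc2 at -6.94.

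The HEK partner was not part of the choice, so the 54 genes were next compared between the C2C12-control wells. Their summed share was 417 CPM (reads scaled to a common library depth) beside HEK-Jag1WT, 405 beside HEK-Jag1Ndr and 396 beside HEK-control. For the 14 genes with at least 100 reads, the median log2 ratio of HEK-Jag1WT over HEK-control was -0.03, against 0.00 over the 10143 genes with as many reads. For HEK-Jag1Ndr over HEK-control it was -0.02, against 0.01. For HEK-Jag1Ndr over HEK-Jag1WT it was 0.08, against 0.01. Each ratio rests on 1 well per partner, and the first 2 comparisons share the HEK-control well, so each gene's values are given side by side.

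Sparcl1 stood highest, with a log2 ratio of 1.88 (exact 95% counting interval 0.91 to 2.98) beside HEK-Jag1WT and 1.53 (0.59 to 2.60) beside HEK-Jag1Ndr, each over HEK-control. Slc2a3 had 0.90 (0.01 to 1.86) beside HEK-Jag1WT and 1.43 (0.64 to 2.30) beside HEK-Jag1Ndr. Cdh11 had 0.67 (0.44 to 0.89) beside HEK-Jag1WT and 0.38 (0.17 to 0.60) beside HEK-Jag1Ndr. For these 3 genes both Jag1 wells lay above the HEK-control well beyond counting error. On the other side, Bcl6b had -1.23 (-2.15 to -0.35), Gda -1.02 (-1.74 to -0.33) and Unc5c -0.92 (-1.67 to -0.20) beside HEK-Jag1WT. Beside HEK-Jag1Ndr the intervals of Bcl6b, Gda and Unc5c held 0. How many of all genes with as many reads had intervals off 0 was not computed. These intervals therefore describe single wells and are not read as a response of the set.

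With a prior count of 2 added, past 2-fold beside HEK-Jag1WT were 1 of the 14 genes upward, against 0.444% of the 10143 genes, and 1 downward, against 0.168% (0.611% in either direction). Beside HEK-Jag1Ndr 2 of the 14 were past 2-fold, both upward, against 0.138%, and between HEK-Jag1Ndr and HEK-Jag1WT 0 were, against 0.158%. The wells beside HEK-Jag1Ndr and HEK-Jag1WT differed beyond counting error for Cdh11 (-0.28, -0.46 to -0.11), I830012O16Rik (0.51, 0.16 to 0.87) and Bcl6b (0.86, 0.05 to 1.74). For these intervals, too, the share over all genes was not computed. With a minimum of 300 reads, 0 genes of the set were past 2-fold in any of these comparisons. Only Cdh11, Evc, Trim44, I830012O16Rik and Mfsd9 have that many reads. The genes past 2-fold above, Sparcl1, Slc2a3 and Bcl6b, fall below that minimum, so the count of 0 says little.

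**Figure D4:**
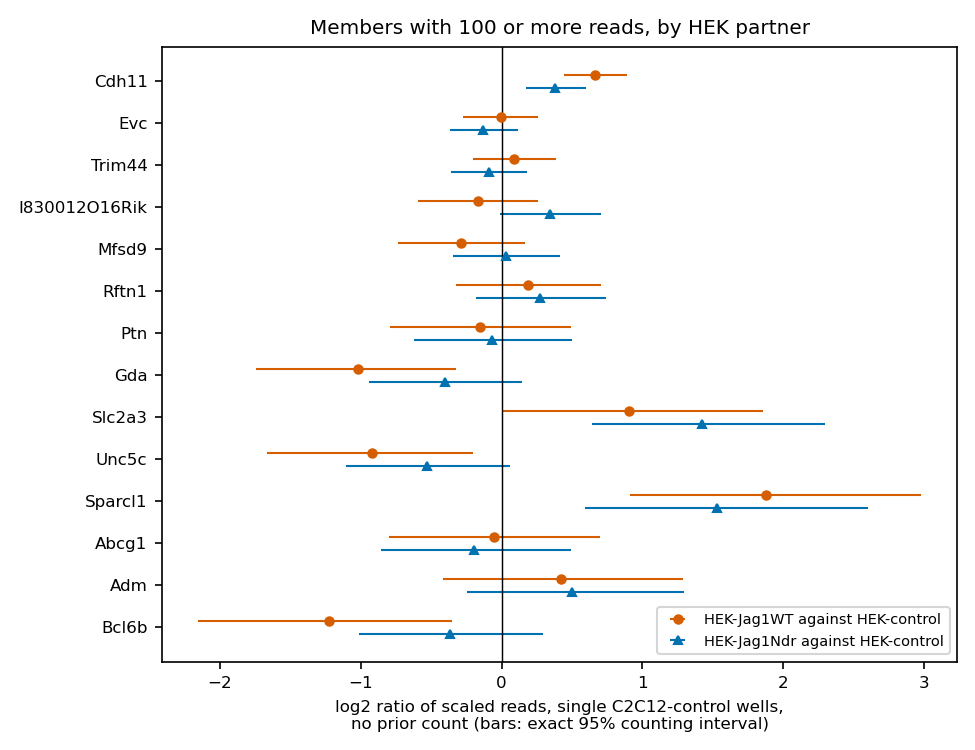
Log2 ratio of scaled reads between single C2C12-control wells for the 14 genes with at least 100 reads, as orange circles for HEK-Jag1WT and blue triangles for HEK-Jag1Ndr, each over HEK-control. Bars are exact 95% counting intervals. Sparcl1, Slc2a3 and Cdh11 lie to the right for both partners, and Gda, Unc5c and Bcl6b to the left beside HEK-Jag1WT.

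In the edgeR fit over all 6 wells, 32 of the 54 genes passed the filter on low counts. Of these, 2 (6.25%) passed the test beside HEK-Jag1WT, against 4.46% of all mouse genes tested. They were Cdh11, with a log2 difference of 0.66 (edgeR adjusted p = 0.000219), and Sparcl1, with 1.85 (edgeR adjusted p = 0.00627). As the C2C12-Notch1 wells hold no reads of these genes, each call rests on 1 well per partner with a spread borrowed from other genes. The calls were lost in DESeq2 (adjusted p = 1.0 for each) and in limma on RPKM (adjusted p = 0.579 for Cdh11 and 0.425 for Sparcl1). In limma the C2C12-Notch1 wells, at 0 by the choice of genes, show no difference between partners and lower the estimate. Without the C2C12-control well beside HEK-Jag1WT or that beside HEK-control, no reads remain on 1 side. Loss of the calls there was fixed in advance. Beside HEK-Jag1Ndr 0 genes passed edgeR's adjusted threshold, against 0.528% of all tested, with 4 at an unadjusted p under 0.05. Between HEK-Jag1Ndr and HEK-Jag1WT 0 passed, against 2.03%, with 3 at an unadjusted p under 0.05.

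The human cells of the same wells supplied RNA that the choice of genes did not use. A human gene of the same name was in the human table for 46 of the 54. Of those, 11 averaged over 10 RPKM, 16 between 1 and 10 RPKM and 19 up to 1 RPKM. In the 3 wells with C2C12-Notch1 cells, these human genes held 32156 reads while the mouse genes held 0. Human TRIM44 had 62.5, 59.8 and 52.1 RPKM beside C2C12-Notch1 in HEK-Jag1WT, HEK-Jag1Ndr and HEK-control cells, against 60.3, 53.8 and 50.4 RPKM beside C2C12-control. EID2 averaged 73.6 ± 22.3 RPKM beside C2C12-Notch1 and 77.2 ± 26 RPKM beside C2C12-control (SD, n = 3 each). SOX2 averaged 5.30 ± 2.49 RPKM beside C2C12-Notch1 and 5.75 ± 2.28 RPKM beside C2C12-control (SD, n = 3 each). CDH11, NDN and CLEC4D had no reads in any well of the human table.

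By C2C12 line, 2 of the 30 human genes tested (6.67%) passed, 1 higher and 1 lower, against 4.84% of all human genes tested (3.07% higher and 1.77% lower). SLC2A3 had 4.98, 16.7 and 9.07 RPKM beside C2C12-Notch1 in HEK-Jag1WT, HEK-Jag1Ndr and HEK-control cells, against 9.82, 29.0 and 16.3 RPKM beside C2C12-control. It was lower beside C2C12-Notch1 within each HEK line, by -0.81 ± 0.0864 on the log2 scale (SE), with an edgeR adjusted p of 9.16e-11 that reached at most 0.00675 under the alternatives. Mouse Slc2a3, by the choice of genes, had no reads in the same wells. ARAP2 was higher by a log2 of 0.47 (edgeR adjusted p = 5.69e-05), a call lost in DESeq2 (adjusted p = 0.0585), in limma (adjusted p = 0.206) and without the HEK-Jag1Ndr well of C2C12-control or of C2C12-Notch1 (edgeR adjusted p = 0.0877 and 0.0908).

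**Figure D5:**
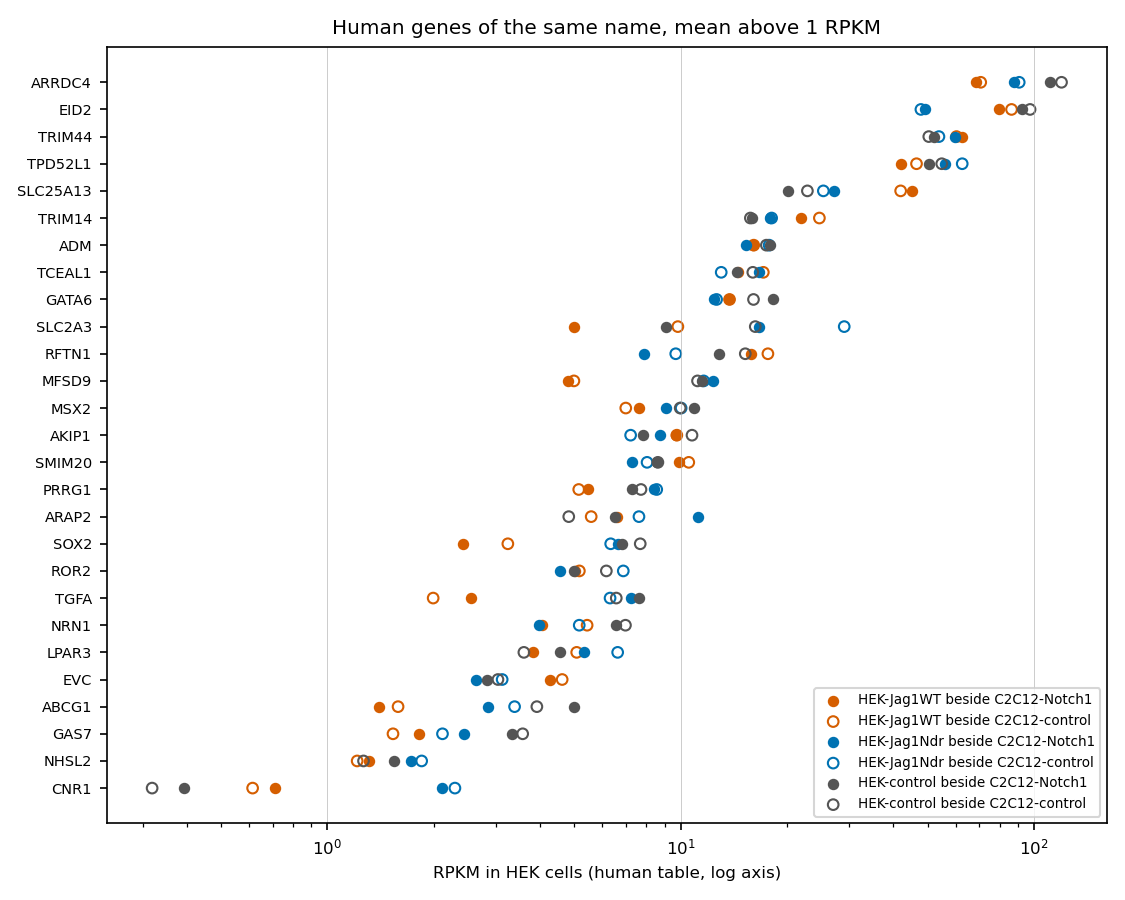
Level in HEK cells, in RPKM on a log axis, of the 27 human genes of the same name with a mean above 1 RPKM. Filled points are wells with C2C12-Notch1 and open points wells with C2C12-control; orange is HEK-Jag1WT, blue HEK-Jag1Ndr and grey HEK-control. Filled and open points of 1 colour mostly coincide, while SLC2A3 has each filled point to the left of its open one.

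Between HEK lines many of these human genes differed, as did many human genes in general. HEK-Jag1WT against HEK-control called 19 of 30 (63.3%, 5 higher and 14 lower), against 54.3% of all tested (24.9% higher and 29.4% lower), with a median log2 difference of -0.19 against -0.03 over all. HEK-Jag1Ndr against HEK-control called 15 (50%, 8 higher and 7 lower), against 46.1% (22.6% higher and 23.5% lower), or 9 when HEK-Jag1Ndr beside C2C12-Notch1 was left out. HEK-Jag1Ndr against HEK-Jag1WT called 19 (63.3%, 14 higher and 5 lower), against 57.7% (29.2% higher and 28.5% lower), with a median of 0.38 against -0.01. The first and the last comparison share the HEK-Jag1WT wells. With 2 wells per HEK line, these compare cell lines, and cannot tell the Jag1 form apart from other differences between the lines.

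SOX2 had 2.42 and 3.24 RPKM in HEK-Jag1WT cells, against 6.84 and 7.68 RPKM in HEK-control cells, beside C2C12-Notch1 and C2C12-control in turn. On the log2 scale it differed by -1.37 ± 0.192 (SE), with an edgeR adjusted p of 1.13e-08. TGFA had 2.56 and 1.99 RPKM in HEK-Jag1WT cells, against 7.60 and 6.57 RPKM in HEK-control cells (log2 -1.66, edgeR adjusted p = 2.47e-14). MFSD9 (log2 -1.23) and ABCG1 (log2 -1.70) were also lower in HEK-Jag1WT cells, and SLC25A13 was higher (log2 1.02). In HEK-Jag1Ndr cells CNR1 had 2.12 and 2.30 RPKM, against 0.392 and 0.319 RPKM in HEK-control cells (log2 2.56, edgeR adjusted p = 4.77e-13). EID2 was lower in HEK-Jag1Ndr cells (log2 -0.97). SLC2A3 was lower in HEK-Jag1WT cells (log2 -0.80) and higher in HEK-Jag1Ndr cells (log2 0.85), each against HEK-control. The calls of this paragraph passed edgeR's threshold and were kept under every alternative tried.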

How the data were processed

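RNA of 6 co-culture wells was sequenced. PolyA RNA went into unstranded libraries, per the labels' protocols. The submitters' processing notes name STAR, mm9 and hg19. How reads were assigned to species is not given in the sources used here. For each species the authors deposited raw counts of reads per gene and well, and with RPKM values, per the file headers. Exact repeats were left out, 472 of 23905 mouse and 448 of 24303 human entries.

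Counts were fitted with edgeR 4.0.16 in R 4.3.3 (TMM scaling, filterByExpr, robust quasi-likelihood test, Benjamini-Hochberg at 0.05), with additive terms for C2C12 line and HEK line over 6 wells. Each C2C12 line thus had 3 wells as replicates and each HEK line 2, with 2 residual degrees of freedom. No label names separate cultures, so p-values cover the spread of these wells alone, and that may be technical. DESeq2 1.42.0 and limma 3.58.1 on log2(RPKM + 0.5) were alternatives. Single wells were compared by TMM-scaled reads with a prior count of 2 for medians and 2-fold counts, and by ratios without a prior with exact conditional 95% counting intervals. Folds against 0 reads use a floor of 3 reads over the group. These intervals and floors hold counting error alone, and the floors make no allowance for choosing genes by their absence of reads. The edgeR fit was tested on simulated counts with 2-fold and 4-fold changes and 1 spread for all genes. For HEK-Jag1WT against HEK-control in mouse counts, 85.9% of the 2-fold changes were recovered. False calls were 3.2% of calls there and 6% by C2C12 line. No gene was set to 0 in a whole C2C12 line, so that test does not cover partner calls on the members.

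The members, the gene lists, the roles and the relatives were chosen with earlier results of these data known. Named genes were the marker genes, the 25 members with the most reads, list genes with the smallest p (up to 4 per list), flanking genes, called human genes and genes nearest the limits of the rule; other members are named with their counts, and relatives and flanking genes were picked from their tables after their values were seen. Some members are counted but not reported here by name.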

Additional observations from a re-analysis of the deposited data

How the results depend on the processing

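The number of genes that meet the rule was 86 with at least 10 C2C12-control reads, 28 with at least 50 and 111 when 1 read per C2C12-Notch1 well was allowed; leaving out a well gave 36 to 86, the highest without the C2C12-Notch1 well beside HEK-control. With all 54 genes counted, 9 were past 2-fold beside HEK-Jag1WT, 4 beside HEK-Jag1Ndr and 4 between HEK-Jag1Ndr and HEK-Jag1WT. The share over all genes was not computed at that setting. Many of the genes had few reads per well, such as Clec4d with 1 beside HEK-Jag1WT and 6 beside HEK-control. These counts therefore say little about a response. With at least 300 reads the first 2 counts were 0, and the median of the last was -0.12. Only Cdh11, Evc, Trim44, I830012O16Rik and Mfsd9 have that many. Of members called by edgeR beside HEK-Jag1WT, 0 were called by DESeq2 and 0 by limma. Leaving out a C2C12-control well of the comparison removes every read on 1 side, so it cannot test these calls. Beside HEK-Jag1Ndr 1 was called without the filter. All mouse genes called by DESeq2 and limma were 151 and 180 beside HEK-Jag1WT (303 to 580 without a well; 320 without HEK-Jag1WT beside C2C12-control, 303 without it beside C2C12-Notch1), 6 and 1 beside HEK-Jag1Ndr (91 without the filter, 40 to 84 without a well), and 41 and 7 between HEK-Jag1Ndr and HEK-Jag1WT (138 to 313 without a well; 141 without HEK-Jag1WT beside C2C12-control, 138 without it beside C2C12-Notch1 and 150 without HEK-Jag1Ndr beside C2C12-Notch1). DESeq2 called 3584 mouse genes by C2C12 line. Of the human genes, DESeq2 called 1 by C2C12 line, 11 beside HEK-Jag1WT and 8 beside HEK-Jag1Ndr; limma called 1 by C2C12 line, as did edgeR without both wells with HEK-Jag1Ndr, an alternative chosen after seeing the data. Leaving out a well gave 1 to 3 by C2C12 line and 9 to 15 for HEK-Jag1Ndr. The cause was not tested. Of values for single genes, 76 lost their call under an alternative, 555 kept their side of the threshold and 0 reversed. No paired analysis was possible because each group has 1 well and every well carries replicate number 1; wells with the same HEK line are matched through the HEK term of the fit. The promoter description was not run, since no mouse promoter table was used here. Depth limits the 26 genes with 20 to 49 reads most.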
